A study of Sorghum bicolor with 12 samples.

Results

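Pyruvate, phosphate dikinase (PPDK) and NADP-dependent malate dehydrogenase (NADP-MDH) were followed in sorghum shoots through 3 genes: Sobic.009G132900 on chromosome 9, which encodes PPDK, and the tandem NADP-MDH genes Sobic.007G166300 and Sobic.007G166200 on chromosome 7. They were taken by gene ID, and each had 1 transcript among the 34210 of the RNA table and the 34026 of the footprint table. The coding sequences are 2847 bases (949 codons, stop included) for Sobic.009G132900.1, 1290 bases (430 codons) for Sobic.007G166300.1 and 1308 bases (436 codons) for Sobic.007G166200.1. The deposited tables carry no gene names, so the enzyme names were not checked against a sequence here. It is not given how reads that match more than 1 transcript were counted, so the values of the tandem pair are uncertain where their sequences are alike.

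Both enzymes work in the chloroplasts of mesophyll cells in C4 grasses such as sorghum, which concentrate carbon dioxide around Rubisco by a cycle that runs between mesophyll and bundle sheath. There, phosphoenolpyruvate takes up bicarbonate to form oxaloacetate, NADP-MDH reduces this to malate, and malate carries the carbon to the bundle sheath, where it is released. PPDK regenerates phosphoenolpyruvate from the pyruvate that returns, at the cost of ATP. PPDK is switched on in light by removal of a phosphate, and NADP-MDH by thioredoxin, which reduces its disulfide bonds. Sorghum is known for a pair of NADP-MDH genes, of which one serves C4 photosynthesis in leaves.

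Whole shoots of the inbred line BTx623 were compared after 8 days on low-sulfate solution (sulfur-deficient) or on a control solution with 500 µM sulfate, following 5 days of germination. The sample titles and the growth protocol put the deficient solution at 10 µM, whereas the design text of the series puts it at 0 µM. Each group had 3 shoots, labelled as biological replicates and taken 13 days after sowing, and 1 powdered shoot supplied an RNA-seq library and a Ribo-seq library. RNA-seq counts fragments of mRNA, and Ribo-seq counts the footprints that ribosomes protect on mRNA. Total counts per library ran between 13995665 and 18475153 in RNA and between 6328659 and 11066815 in footprints. In RNA, deficient shoot 1 resembled control shoot 3 (r = 0.9913 across transcripts) more than deficient shoots 2 and 3 (0.9885 and 0.9871), so each edgeR test is also given without deficient shoot 1 and control shoot 3. In bulk shoots, fewer mesophyll cells and less RNA per cell cannot be told apart.

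PPDK mRNA was among the most abundant in every shoot and differed little between treatments. It stood at 17061, 17416 and 17526 CPM (counts relative to the TMM-scaled library total) in sulfur-deficient shoots 1, 2 and 3, against 16929, 16116 and 17135 CPM in control shoots 1, 2 and 3. Control shoot 2 was the lowest of the 6 and the groups overlapped. By CPM it was the first or second transcript of each RNA library and the second of each footprint library. It took 1.72% ± 0.0147 of all RNA counts in deficient shoots and 1.69% ± 0.0298 in control shoots (SD, n = 3 each). Footprints on PPDK took a larger share, 2.20% ± 0.275 in deficient shoots and 2.17% ± 0.185 in control shoots (SD, n = 3 each).

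Footprints on PPDK numbered 24015, 20281 and 23765 CPM in deficient shoots 1, 2 and 3, against 20394, 19423 and 23203 CPM in control shoots 1, 2 and 3. Deficient shoot 2 lay within the control range, while deficient shoots 1 and 3 lay above it, so the groups overlapped. The depth behind these values was high, with 154 to 200 footprints per codon in deficient shoots and 193 to 238 in control shoots. Counting noise was therefore a small part of the spread.

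Sobic.007G166300.1 was the more abundant of the NADP-MDH pair. Its mRNA stood at 236, 214 and 220 CPM in deficient shoots 1, 2 and 3, against 229, 214 and 199 CPM in control shoots 1, 2 and 3. Its footprints were 479, 368 and 441 CPM in deficient shoots 1, 2 and 3, and 448, 435 and 385 CPM in control shoots 1, 2 and 3. In footprints, deficient shoots held both the highest and the lowest value of the 6. The transcript ranked between 554 and 716 of 34210 in RNA and between 264 and 385 of 34026 in footprints.

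Sobic.007G166200.1 was the least abundant of the 3, ranking between 6721 and 7550 of 34210 in RNA and between 2793 and 3484 of 34026 in footprints. Its mRNA stood at 23.8, 23.0 and 27.3 CPM in deficient shoots 1, 2 and 3, against 27.1, 24.2 and 25.1 CPM in control shoots 1, 2 and 3. The range of the deficient shoots enclosed all control shoots. Its footprints stood at 51.5, 49.2 and 55.0 CPM in deficient shoots 1, 2 and 3, and at 58.7, 60.8 and 54.1 CPM in control shoots 1, 2 and 3. Deficient shoots 1 and 2 were below all control shoots, and deficient shoot 3 was above control shoot 3, so the groups overlapped. These values rest on 373 to 423 RNA counts and 314 to 438 footprints per library in deficient shoots, and on 371 to 410 RNA counts and 481 to 708 footprints in control shoots.

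Per kilobase of coding sequence, the order of the levels was the same in both assays and in every shoot: PPDK first, then Sobic.007G166300.1, then Sobic.007G166200.1. The RNA level of PPDK was 6089 ± 85.3 CPM per kb in deficient shoots and 5875 ± 189 in control shoots (SD, n = 3 each). Sobic.007G166300.1 had 173 ± 8.87 CPM per kb of RNA in deficient shoots and 166 ± 11.3 in control shoots, and Sobic.007G166200.1 had 18.9 ± 1.72 in deficient shoots and 19.5 ± 1.11 in control shoots (SD, n = 3 each). Each step in this order was far larger than the spread between shoots. RNA counts are per transcript while the length is that of the coding sequence, so reads from untranslated regions add to the RNA level per kb.

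In footprints, PPDK stood at 7969 ± 733 CPM per kb in deficient shoots and 7378.5 ± 689 in control shoots (SD, n = 3 each). Sobic.007G166300.1 stood at 333 ± 43.8 in deficient shoots and 328 ± 25.7 in control shoots, and Sobic.007G166200.1 at 39.7 ± 2.22 in deficient shoots and 44.2 ± 2.60 in control shoots (SD, n = 3 each). Division by length lowered the rank of PPDK, whose coding sequence is long. Per kb it ranked between 21 and 23 in RNA and between 12 and 25 in footprints.

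**Figure D1:**
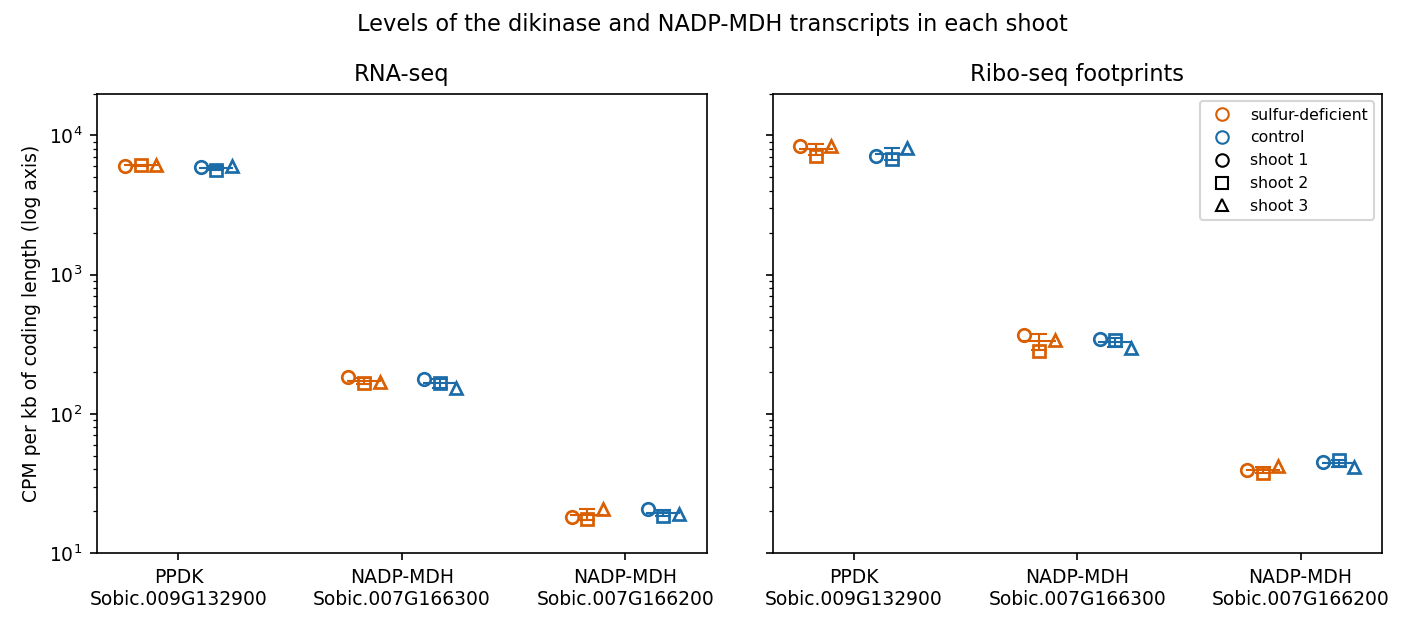
Level of each transcript in CPM per kb of coding length on a log axis, in RNA-seq (left) and Ribo-seq (right), for sulfur-deficient (orange) and control (blue) shoots. Symbols are single shoots and bars the mean ± SD of 3. PPDK lies above Sobic.007G166300 and this above Sobic.007G166200 in every shoot, and within each transcript the orange and blue symbols overlap.

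The first comparison asked whether the mRNAs changed with sulfur supply. None of the 3 passed the threshold in edgeR's quasi-likelihood test with Benjamini-Hochberg adjustment over all 20045 transcripts tested, of which 0.634% passed the adjusted p threshold of 0.05. PPDK mRNA differed by 0.05 on the log2 scale (deficient over control, SE 0.0559, edgeR adjusted p = 0.75), with a 95% interval of 0.951- to 1.13-fold. That interval was the narrowest of all 20045. Sobic.007G166300.1 differed by 0.06 (log2, SE 0.0745, edgeR adjusted p = 0.785) and an interval of 0.930- to 1.17-fold. Sobic.007G166200.1 had -0.05 (log2, SE 0.0886, edgeR adjusted p = 0.872) and an interval of 0.846- to 1.11-fold. Without deficient shoot 1 and control shoot 3 the log2 values were 0.10, -0.01 and -0.02 in the same order, and none passed the threshold. The groups of shoots overlapped for each of the 3, whereas they did not for 17.6% of the transcripts tested in RNA.

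The second comparison asked the same of ribosome footprints. None of the 3 passed the edgeR threshold, and 0.224% of the 16514 transcripts tested did. The log2 fold change of PPDK footprints was 0.11 (SE 0.151, edgeR adjusted p = 0.896), with a 95% interval of 0.857- to 1.36-fold. Sobic.007G166300.1 had a value of 0.02 (SE 0.14, edgeR adjusted p = 0.984) and an interval of 0.819- to 1.26-fold. Sobic.007G166200.1 had the largest footprint difference of the 3, -0.16 on the log2 scale (SE 0.119, edgeR adjusted p = 0.79, interval 0.747- to 1.08-fold). Without deficient shoot 1 and control shoot 3, PPDK had 0.15, Sobic.007G166300.1 had -0.13, a change of sign, and Sobic.007G166200.1 had -0.20, none past the threshold. In footprints, groups without overlap made up 10.9% of all transcripts tested and 0 of these 3.

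The third comparison asked whether the ratio of footprints to RNA, the translational efficiency, depended on sulfur supply. A model over all 12 libraries gave this as the assay-by-treatment term. With edgeR 0 of 16420 transcripts (0%) passed, and 407 had an unadjusted p below 0.05. With DESeq2 0 passed, and 354 had one. The log2 change in efficiency was 0.06 for PPDK (SE 0.142), with a 95% interval of 0.844- to 1.29-fold. It was -0.04 for Sobic.007G166300.1 (SE 0.154, interval 0.774- to 1.22-fold) and -0.11 for Sobic.007G166200.1 (SE 0.134, interval 0.758- to 1.13-fold). The edgeR adjusted p was 0.9997 for each of the 3. Without deficient shoot 1 and control shoot 3 the log2 changes were 0.05, -0.11 and -0.18 in the same order. Ratios of deficient and control shoots overlapped for all 3 genes, and they did not for 8.13% of transcripts.

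None of these 9 intervals reached a 2-fold rise or a 2-fold fall. Smaller changes within the intervals were not excluded with 3 shoots per group. The intervals of the 3 genes were narrower than the median over all transcripts tested, which were not matched for level. Their half-widths on the log2 scale were 0.124, 0.165 and 0.196 in RNA, against a median of 0.265. The order is PPDK, Sobic.007G166300.1 and Sobic.007G166200.1. In footprints the half-widths were 0.334, 0.310 and 0.263 in the same order, against a median of 0.442.

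**Figure D2:**
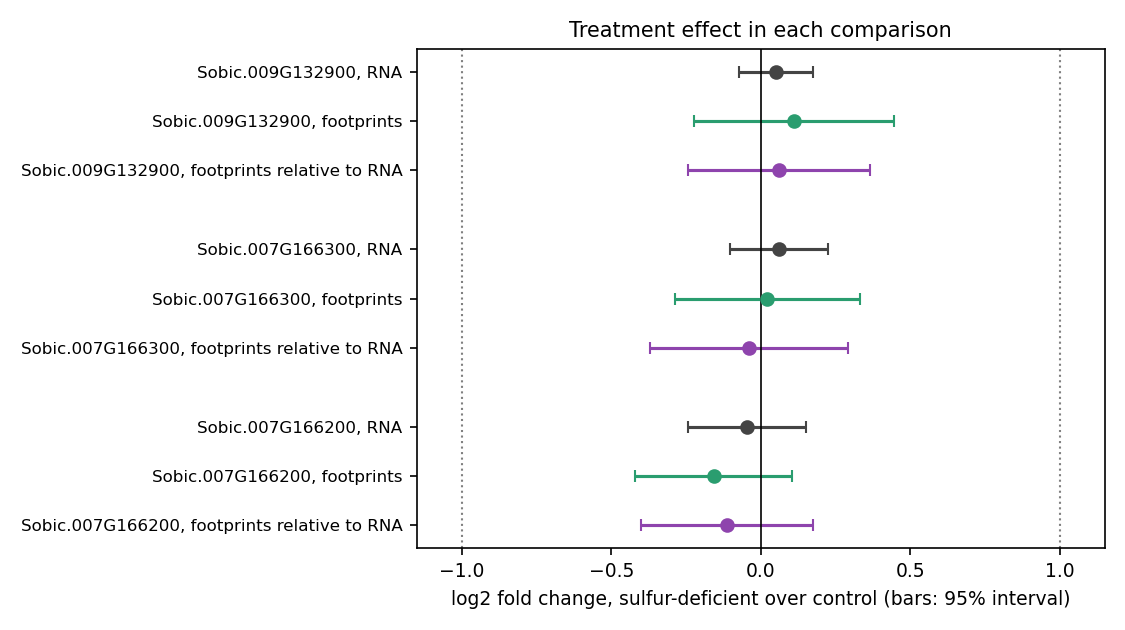
Log2 fold change, sulfur-deficient over control, of each gene in RNA (grey), footprints (green) and footprints relative to RNA (purple), with 95% intervals from edgeR. Dotted lines mark 2-fold changes. All 9 intervals include 0 and end inside the dotted lines.

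The ratio between members within a library does not depend on how libraries are scaled. Per coding length, PPDK exceeded Sobic.007G166300.1 by 35.3 ± 2.20 times in deficient shoots and 35.5 ± 2.95 times in control shoots in RNA (SD, n = 3 each). In footprints it exceeded it by 24.0 ± 1.19 times in deficient shoots and 22.7 ± 3.97 times in control shoots (SD, n = 3 each). The tandem pair kept a ratio of 9.20 ± 0.938 (Sobic.007G166300.1 over Sobic.007G166200.1) in deficient shoots and 8.52 ± 0.450 in control shoots in RNA, and of 8.37 ± 0.955 in deficient shoots and 7.40 ± 0.286 in control shoots in footprints (SD, n = 3 each). None of 6 such comparisons (3 pairs of genes in each assay) separated the treatments. The lowest p was 0.2 by a two-sided exact permutation test, 0.45 after Benjamini-Hochberg adjustment, in a design of 3 against 3 that cannot go below 0.1. The largest difference was in footprints of PPDK over Sobic.007G166200.1, with ratios of 214, 189 and 198 in deficient shoots 1, 2 and 3, against 159, 147 and 197 in control shoots 1, 2 and 3. Deficient shoot 2 lay below control shoot 3, so these groups overlapped too.

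Ribosome footprints relative to mRNA differed between PPDK and the NADP-MDH genes more than between the treatments. PPDK had 1.41, 1.16 and 1.36 footprint CPM per RNA CPM in deficient shoots 1, 2 and 3, against 1.20, 1.21 and 1.35 in control shoots 1, 2 and 3. Sobic.007G166300.1 had 2.03, 1.72 and 2.00 in deficient shoots 1, 2 and 3, against 1.96, 2.03 and 1.93 in control shoots 1, 2 and 3. Sobic.007G166200.1 had 2.16, 2.14 and 2.02 in deficient shoots 1, 2 and 3, against 2.17, 2.51 and 2.16 in control shoots 1, 2 and 3. Both NADP-MDH transcripts thus had a higher footprint-to-RNA ratio than PPDK in each of the 6 shoots. A ratio of 1 means equal CPM in both libraries after TMM scaling, not a single ribosome per mRNA. RNA reads increase with transcript length, so a higher ratio does not mean more ribosomes per mRNA molecule between genes of unlike length.

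Within a shoot, the footprint-to-RNA ratio of Sobic.007G166300.1 was 1.43 to 1.69 times that of PPDK, with a mean log2 difference of -0.60 ± 0.0994 for PPDK relative to it (SD, n = 6 shoots). That of Sobic.007G166200.1 was 1.49 to 2.08 times that of PPDK, with a mean log2 difference of -0.77 ± 0.185 for PPDK (SD, n = 6 shoots). The tandem genes differed from each other by less, Sobic.007G166200.1 being 1.01 to 1.24 times as high as Sobic.007G166300.1, a mean log2 difference of -0.17 ± 0.118 for Sobic.007G166300.1 relative to Sobic.007G166200.1 (SD, n = 6 shoots). All 3 differences had the same sign in 6 of 6 shoots, with p = 0.03125 each by a two-sided exact sign-flip test, the smallest p that 6 shoots allow, and 0.03125 after adjustment over 3 comparisons. A count bias particular to a transcript, such as reads from untranslated regions or reads shared within the tandem pair, would repeat in every shoot. Its part in these differences was not tested.

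Among 16420 transcripts, the mean log2 footprint-to-RNA ratio of PPDK exceeded that of 79.8% of transcripts in deficient shoots and 78.9% in control shoots. Sobic.007G166300.1 exceeded 94.4% in deficient shoots and 95.9% in control shoots, and Sobic.007G166200.1 exceeded 95.9% in deficient shoots and 97.5% in control shoots. The median log2 ratio over all transcripts was -0.27 in deficient shoots and -0.29 in control shoots. All 3 transcripts were therefore in the upper part of the distribution in both treatments.

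**Figure D3:**
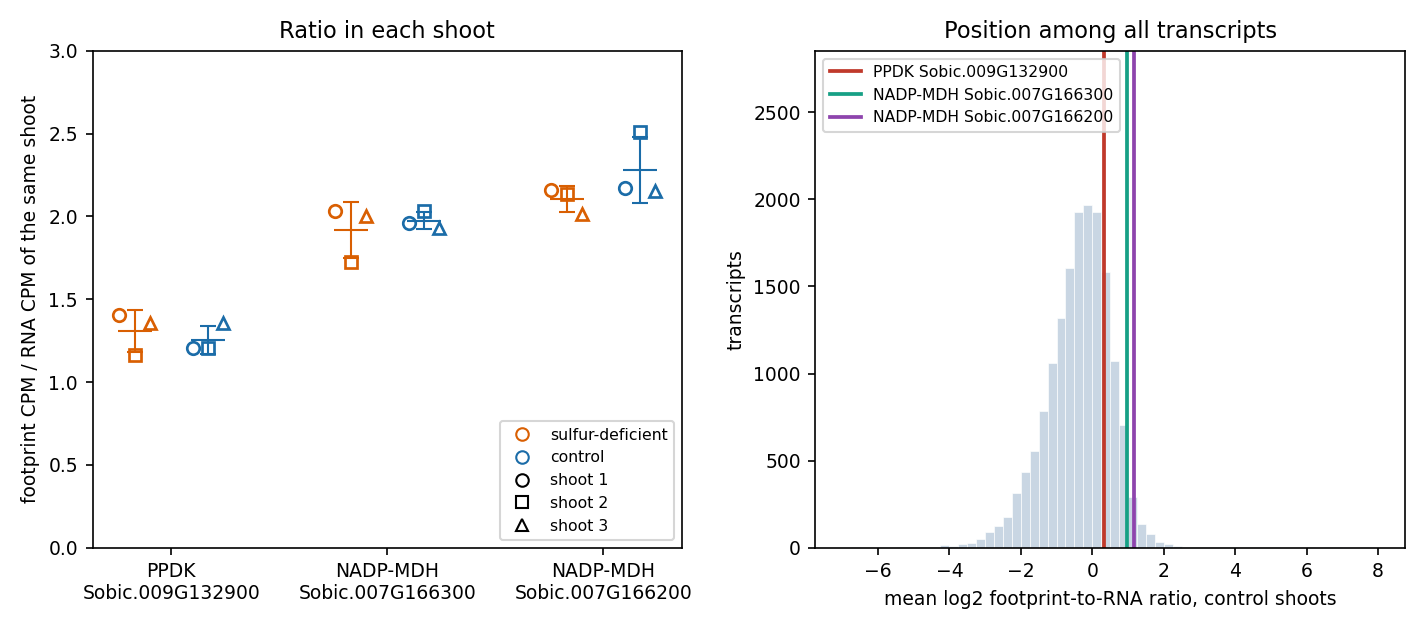
Left, footprint CPM over RNA CPM of the same shoot, for sulfur-deficient (orange) and control (blue) shoots, with the mean ± SD of 3 shoots. Right, number of transcripts by mean log2 footprint-to-RNA ratio in control shoots, with lines at the 3 genes: PPDK exceeds 78.9% of transcripts, and the NADP-MDH genes 95.9% and 97.5%.

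Spread between shoots was larger in footprints than in RNA, most of all for PPDK. Over all 6 libraries the coefficient of variation of PPDK mRNA was 2.94%, lower than that of all but 1.70% of the transcripts tested, and its highest library exceeded the lowest 1.09 times. Counting noise at this depth gives 0.195%. Only 2 transcripts, PPDK included, were within 2-fold of its RNA level, so its variation has no level-matched comparison. For PPDK footprints the coefficient of variation was 9.30%, with counting noise of 0.234% and a ratio of 1.24 between the highest and the lowest library.

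The NADP-MDH genes varied a little more in RNA. Sobic.007G166300.1 had a coefficient of variation of 5.82% in RNA and 9.76% in footprints, against medians of 7.53% and 12.6% over transcripts within 2-fold of its level. Sobic.007G166200.1 had 6.94% in RNA and 7.88% in footprints, against medians of 8.09% and 12.0% over transcripts within 2-fold of its level. For this less abundant gene, counting noise alone gives 5.08% in RNA and 4.71% in footprints.

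**Figure D4:**
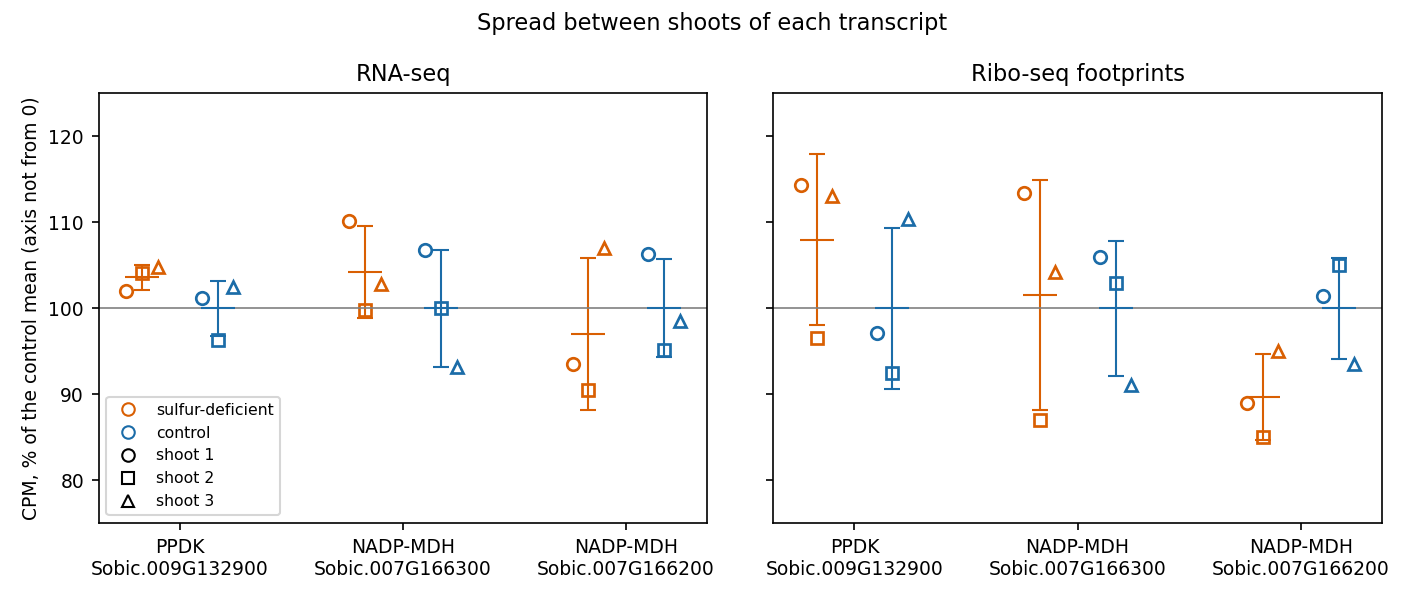
CPM of each transcript in each shoot as a percentage of its control mean, in RNA-seq (left) and Ribo-seq (right), with the mean ± SD of 3 shoots per group; the axis does not start at 0. PPDK mRNA stays between 96.3% and 105% in all 6 shoots, and its footprints run between 92.5% and 114%.

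No strong correlation between the genes was seen from shoot to shoot. Over 6 libraries per assay, which share their treatment contrast and scaling, Pearson's r of log2 CPM between PPDK and Sobic.007G166300.1 was 0.0166 in RNA and 0.274 in footprints. Between the tandem genes it was 0.135 in RNA and 0.390 in footprints. Between PPDK and Sobic.007G166200.1 it was 0.181 in RNA and -0.418 in footprints. These values are descriptions over few libraries and cannot tell whether the genes vary together. For Sobic.007G166200.1, counting noise is also a large part of the spread (5.08% against a coefficient of variation of 6.94% in RNA).

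Of 16419 other transcripts, those most like PPDK by the lower of its r in RNA and in footprints were Sobic.003G373500.1 (0.930 in RNA, 0.968 in footprints) and Sobic.006G193200.3 (0.918 in RNA, 0.928 in footprints). For Sobic.007G166300.1 they were Sobic.001G217600.1 (0.987 in RNA, 0.913 in footprints) and Sobic.002G181600.2 (0.893 in RNA, 0.941 in footprints). For Sobic.007G166200.1 they were Sobic.002G003300.1 (0.891 in RNA, 0.859 in footprints) and Sobic.001G447000.1 (0.945 in RNA, 0.851 in footprints). Of these, Sobic.002G003300.1 was rare, with a mean of 0.661 CPM in RNA and 2.55 CPM in footprints. None of the 3 genes was among the transcripts most like another of them. With 6 libraries per assay and so many candidates, high values of r arise readily.

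Next to the tandem pair in ID order, Sobic.007G166100.1 had 76.5 CPM of RNA in deficient shoots and 77.4 CPM in control shoots on average, between the 2 NADP-MDH genes. On the other side, Sobic.007G166400.1 averaged 8.37 CPM in deficient shoots and 7.67 CPM in control shoots. Both lay well below Sobic.007G166300.1. The transcripts beside PPDK were rarer still, with 6.21 CPM in deficient shoots and 5.51 CPM in control shoots for Sobic.009G132800.3, and 9 RNA counts over all 6 libraries for Sobic.009G133000.1. None of the neighbours tested passed the edgeR threshold in RNA (adjusted p = 0.59 to 0.932).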

How the data were processed

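The values deposited by the authors are unnormalized counts: sequencing reads per transcript for RNA, and, per the file headers, P sites (codons occupied by ribosomes) totalled over each coding sequence for footprints, beside its length. The labels' protocols describe a gel slice of 26 to 34 nt. Bowtie2 and STAR appear in the submitters' processing notes. Counting program, genome build and annotation: not given in the sources used here. Both tables share column names, and the assay was taken from each table's content.

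Counts were analysed with edgeR 4.0.16 in R 4.3.3: TMM factors, filterByExpr (minimum count 10, minimum total 15), and the robust quasi-likelihood test with an adjusted p threshold of 0.05 over all transcripts. RNA and footprints were fitted separately, and efficiency as an interaction with TMM factors set within each assay. CPM are relative to the scaled library. Ratios between genes used a prior count of 0.5 and exact tests in Python 3.11.15. Libraries of a group differed beyond sampling noise (chi-square per degree of freedom 2.70 to 18.8), so each counted as 1 sample. The main edgeR tests were first checked on simulated data, and the exact tests on values with a known answer.

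RNA and footprint libraries of a shoot come from 1 powder, per the labels' protocols; their deviations from group means had correlations of 0.102 to 0.521. None of the gene IDs, 0 of 34210, matched the reference table (assembly Sorghum_bicolor_NCBIv3), so a list of other C4 genes and tissue markers could not be drawn up and no sequence is shown. Genes and lists were chosen with earlier results of these data known. Other transcripts were named by rule: the 2 most alike each gene, and up to 2 neighbours on each side in ID order. Alternatives were DESeq2 1.42.0, other scaling and filters, blocks, and left-out shoots.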

Additional observations from a re-analysis of the deposited data

How the results depend on the processing

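No alternative brought any of the 3 genes past the threshold in RNA, footprints or efficiency (13 alternatives each, lowest adjusted p = 0.389), the replicate block among them (PPDK 0.05 in RNA and 0.11 in footprints, and 0.06 in efficiency with the shoot as a block). Of these 117 values 7 changed sign. Without both control shoot 3 and deficient shoot 1, Sobic.007G166300.1 had -0.014 in RNA and -0.126 in footprints. With 1 shoot left out it ranged from -0.0626 to 0.123 in footprints and from -0.0784 to 0.0341 in efficiency, and Sobic.007G166200.1 from -0.119 to 0.00154 in RNA.

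Treatment differences of the ratios between genes kept their sign, except that PPDK to Sobic.007G166300.1 in RNA ranged from -0.0489 to 0.058 with 1 shoot left out; their exact tests could pass 0.05 under no setting. Gene differences in footprints minus RNA ranged from -0.623 to -0.574 (PPDK to Sobic.007G166300.1), -0.814 to -0.717 (PPDK to Sobic.007G166200.1) and -0.201 to -0.141 (between the NADP-MDH genes) with 1 shoot left out, where p = 0.0625 is the smallest that an exact test of 5 shoots can give. Without division by length, PPDK exceeded Sobic.007G166300.1 by 78.1 times in RNA and 51.6 times in footprints.

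Over all transcripts, RNA calls (127) became 262 with DESeq2, 200 with no filter, 2294 without control shoot 3 and deficient shoot 1, and 35 to 508 with 1 shoot left out. Footprint calls (37) became 95 with DESeq2, 17 where both groups had to average 50 counts or more, 77 without that pair, and 11 to 70 with 1 shoot left out. The stricter filter tests fewer transcripts. That pair was picked because its shoots were the most alike between groups in RNA, so calls without it depend on that choice. Beyond this, the causes were not tested. Replicate numbers did not pair the treatments (correlations of deviations from -0.163 to 0.198), and the replicate block gave 95 RNA and 30 footprint calls.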

Other observations

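As the second ID before PPDK, Sobic.009G132700.1 (coding length 441 bases) averaged 24.6 CPM of RNA in deficient shoots and 23.6 CPM in control shoots. This was near Sobic.007G166200.1 in CPM but not per kb of coding length. Over the 6 RNA libraries it averaged 54.6 CPM per kb, against 19.2 for Sobic.007G166200.1. The coding sequence of Sobic.009G132700.1 held 0 to 2 footprints per library and 6 over all 6 libraries, against 2250 RNA counts. Sobic.007G166200.1 had 2876 footprints over the same libraries for 2334 RNA counts.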
